A study of Mus musculus with 14 samples.

Results

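Mitochondrial ribosomal protein genes were taken as the genes whose listed symbol starts with Mrpl or Mrps followed by a number. The probe table listed 76 such genes with 110 probes. A probe was kept when it was detected (detection p under 0.01) on at least 2 of the 14 arrays, which left 71 genes, called members here, with 99 probes, among 9054 genes tested in all. The 5 genes left out, Mrpl19, Mrpl21, Mrpl32, Mrps14 and Mrps36, each had 1 probe that was detected on 0 arrays.

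Mitochondria carry their own ribosome, which translates the few membrane proteins that mitochondrial DNA encodes, all of them subunits of the respiratory chain and the ATP synthase. Its RNAs come from mitochondrial DNA, but every protein of it is made from nuclear genes, translated in the cytosol and imported. Some of these proteins descend from bacterial ribosomal proteins and others were added in the mitochondrial lineage. In pluripotent cells, which rely much on glycolysis, mitochondria are known to change with the pluripotent state and with oxygen. Of the members, 25 belong to the small subunit and 46 to the large subunit, with Mrps18a and Mrps30 counted in the large subunit, where their proteins sit despite their names.

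RNA of mouse cells of a C57BL background of 8 groups was hybridised to Illumina bead arrays with 1 colour. Primordial germ cells (PGCs), the precursors of eggs and sperm, were taken at 11.5 days post coitum (PGC11.5, 2 arrays). Embryonic germ cells (EG, 2 arrays) are pluripotent cells of the PGC lineage, and hiEGL1 and hiEGL2 (2 arrays each) are lines resembling them that arose under hypoxia, the only groups labelled as cultured in it. Embryonic stem cells gave 2 arrays from a male line (ESCm) and 2 from a female line (ESCf), and epiblast stem cells gave 1 array from line T9 (EpiT9) and 1 from line E3 (EpiE3). A characteristic of the ESCm and ESCf samples names embryonic germ cells, and their titles were followed. Each hiEGL group is 1 line, and the labels do not say whether replicate arrays come from separate cultures or animals, so each p-value reflects array-to-array spread that may be technical. In these bulk samples, fewer cells of a type and less RNA per cell cannot be told apart.

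Levels are log2 intensities after background correction and quantile normalization, and a member is represented by its brightest probe over all arrays. A member is called higher or lower when its p-value, from limma and adjusted over all 9054 genes, is under 0.05. Between 29.8% and 45.4% of all probes were detected per array, and 62 to 71 of the 71 members. Mean raw signals ran from 114.8 and 184.7 on the PGC11.5 arrays to 622.5 on an ESCm array. Replicate correlation over all genes was r = 0.994 to 0.997, and r = 0.952 for PGC11.5, and the members' median distance between both arrays was 0.07 to 0.10 in the other groups and 0.23 in PGC11.5. Groups were compared within EG, hiEGL1 and hiEGL2 and, separately, within ESC, EpiSC and PGC11.5, and no level is set across that line.

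Upstream sequences of 63 members were found in the RefSeq promoter table of build GRCm38.p6, each window running from 250 bases before to 50 bases after a gene's start, and 3 of these members had several windows. A set of 4 letter patterns known from promoters of mitochondrial genes were searched on both strands. The pattern CCGGAAG, bound by ETS factors such as GABP, occurred in 39.7% of these members, in 20.1% of all genes tested with a promoter in the table (7353) and in 9.93% of all genes of the table (27025). The NRF1 pattern GCGCANGCG occurred in 22.2%, 15.7% and 7.03%, the YY1 pattern AAGATGGCG in 12.7%, 3.66% and 1.64%, and the E-box CACGTG in 7.94%, 11.9% and 8.09%. At least 1 pattern stood in 41 members and none in 22. The end of the ETS pattern and the start of the YY1 pattern are both AAG, so these 2 can overlap. A match is a description of letters, not a binding site.

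The windows of 5 members are shown because the results below turn on these genes, with each match in capitals, 5′ to 3′ on the gene's own strand. Mrpl12 holds 1 NRF1 match (chr11:120484387-120484686, plus strand), Mrps12 1 ETS match (chr7:28741772-28742071, minus strand), the first of 2 windows of Mrps16 2 ETS matches (chr14:20393441-20393740, minus strand), Mrps18a 1 ETS and 1 YY1 match (chr17:46110754-46111053, plus strand), and Mrpl23 none of the 4 patterns (chr7:142532782-142533081, plus strand).
Mrpl12: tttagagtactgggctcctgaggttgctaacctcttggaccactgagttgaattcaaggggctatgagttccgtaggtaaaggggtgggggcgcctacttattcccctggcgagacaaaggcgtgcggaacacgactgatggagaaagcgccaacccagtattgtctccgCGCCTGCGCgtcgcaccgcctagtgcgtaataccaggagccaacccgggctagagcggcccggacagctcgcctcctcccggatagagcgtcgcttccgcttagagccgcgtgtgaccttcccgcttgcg
Mrps12: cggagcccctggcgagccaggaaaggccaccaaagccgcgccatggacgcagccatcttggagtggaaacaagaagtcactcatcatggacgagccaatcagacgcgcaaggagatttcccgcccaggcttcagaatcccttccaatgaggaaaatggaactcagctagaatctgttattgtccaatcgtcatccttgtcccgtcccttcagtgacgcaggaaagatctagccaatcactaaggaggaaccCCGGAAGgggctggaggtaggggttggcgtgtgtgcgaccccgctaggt
Mrps16: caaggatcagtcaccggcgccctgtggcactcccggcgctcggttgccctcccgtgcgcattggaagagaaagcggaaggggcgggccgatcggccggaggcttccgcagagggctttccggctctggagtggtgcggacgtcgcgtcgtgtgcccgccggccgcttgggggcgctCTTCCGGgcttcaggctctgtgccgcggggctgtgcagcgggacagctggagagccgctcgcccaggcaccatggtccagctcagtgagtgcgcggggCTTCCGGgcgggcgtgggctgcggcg
Mrps18a: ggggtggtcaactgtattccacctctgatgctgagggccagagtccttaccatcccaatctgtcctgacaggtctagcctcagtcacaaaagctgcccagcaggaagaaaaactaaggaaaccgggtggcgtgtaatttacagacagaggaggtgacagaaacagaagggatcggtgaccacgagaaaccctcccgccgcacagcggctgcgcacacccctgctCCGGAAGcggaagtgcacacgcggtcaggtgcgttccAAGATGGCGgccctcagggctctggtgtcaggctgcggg
Mrpl23: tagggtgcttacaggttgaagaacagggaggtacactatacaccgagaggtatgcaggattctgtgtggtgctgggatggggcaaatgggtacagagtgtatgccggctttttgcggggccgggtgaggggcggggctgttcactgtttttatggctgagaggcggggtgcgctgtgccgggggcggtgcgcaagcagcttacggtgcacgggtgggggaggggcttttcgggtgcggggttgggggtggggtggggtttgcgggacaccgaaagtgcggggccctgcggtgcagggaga

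Comparing the hypoxia-derived lines with EG cells asks how cells of the same lineage differ in this gene group. In hiEGL2, 42 of the 71 members were lower than in EG and 5 were higher, whereas 32.7% of all genes tested were called lower and 26.5% higher (59.2% in all). The members' median log2 difference was -0.44, beside -0.06 over all genes. In hiEGL1, 29 members were lower and 17 higher, beside 30.7% and 28.1% of all genes (58.8% in all), with medians of -0.12 and -0.02. Respiratory chain and ATP synthase subunit genes had counts like the members' in hiEGL2, with 42 of 70 lower, 6 higher and a median of -0.39. Of 60 cytosolic ribosomal protein genes, 19 were lower and 9 higher in hiEGL2, with a median of -0.10.

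**Figure D1:**
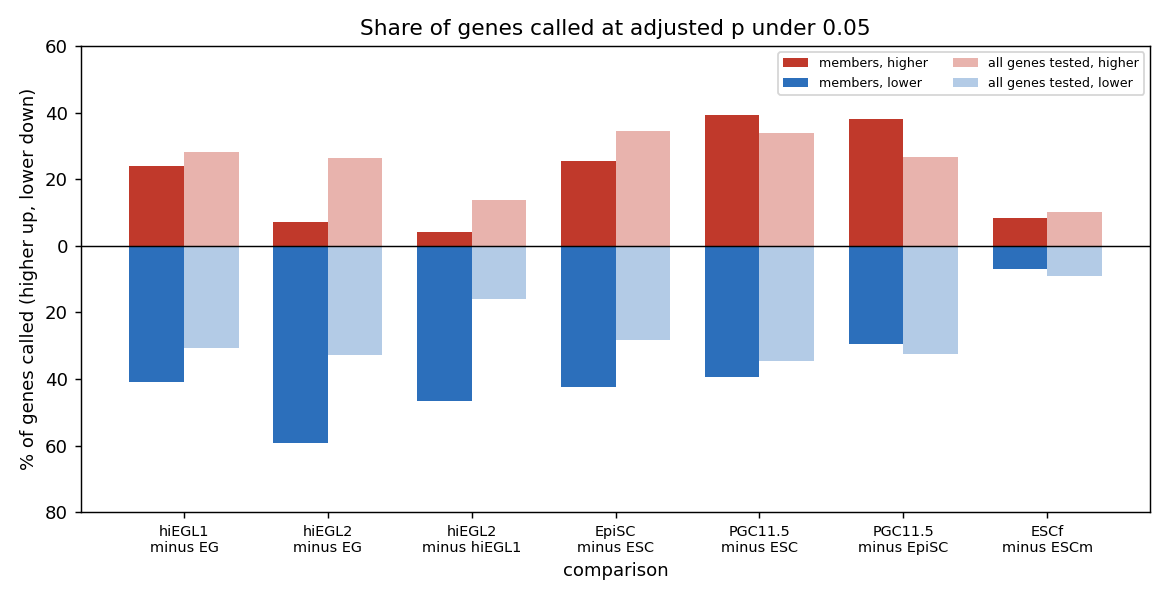
Percentage of genes called higher (upward bars) and lower (downward bars) at an adjusted p under 0.05 in each of the 7 comparisons, for the 71 members (dark) and all 9054 genes tested (pale). The widest gap between members and all genes is in the lower calls of hiEGL2, at 59.2% against 32.7% relative to EG and 46.5% against 16% relative to hiEGL1.

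The 2 hiEGL lines were set against the same EG arrays, so their values are given side by side. The 5 members higher in hiEGL2 were Mrps18a, Mrps10, Mrpl14, Mrpl23 and Mrpl33, all of them relatives of bacterial ribosomal proteins. Mrps18a, 1 of 3 mouse relatives of bacterial S18, stood at 8.60 and 8.61 in EG, 10.24 and 10.20 in hiEGL1 and 9.41 and 9.45 in hiEGL2. Its groups did not overlap, with hiEGL1 on top. It was 3.06-fold higher in hiEGL1 (log2 difference 1.61 ± 0.08 SE, adjusted p = 1.09e-07) and 1.77-fold higher in hiEGL2 (adjusted p = 1.07e-05). The other S18 relatives went another way: Mrps18b was lower in hiEGL1 (log2 difference -0.70) and hiEGL2 (-1.18), and Mrps18c was lower in hiEGL2 (-0.55) with a difference in hiEGL1 that did not pass the test.

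Mrpl14, which lies at the interface of the subunits, stood at 9.48 and 9.43 in EG, 10.57 and 10.55 in hiEGL1 and 10.12 and 10.27 in hiEGL2. That is 2.15-fold higher in hiEGL1 and 1.67-fold higher in hiEGL2, with no overlap. Mrps10, a small-subunit protein, rose 1.99-fold in hiEGL1 and 1.91-fold in hiEGL2 by its brightest probe. Its second kept probe differed by 0.19 (adjusted p = 0.196) and 0.10 (adjusted p = 0.514) on the log2 scale, so both calls rest on 1 probe. Mrpl23, of the exit tunnel region, rose 2.07-fold in hiEGL1 and 1.27-fold in hiEGL2.

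The largest falls were those of Mrps5, Mrps31 and Mrpl35 in hiEGL1 and of Mrpl35, Mrps5 and Mrpl47 in hiEGL2. Mrps5, a small-subunit protein whose bacterial relative lies on the path of the mRNA, read 7.79 and 7.65 in EG, 6.0 and 5.87 in hiEGL1 and 5.96 and 5.88 in hiEGL2. Both lines lay below EG, 3.44-fold lower in hiEGL1 (log2 difference -1.78 ± 0.10 SE, adjusted p = 2.74e-07) and at least 3.21-fold lower in hiEGL2, where neither array detected the probe. Its other probe differed by -0.37 in hiEGL1 (adjusted p = 0.123) and by -1.18 in hiEGL2 (adjusted p = 2.90e-04), so the hiEGL1 call rests on 1 probe. "At least" marks a lower bound on a fold here and below: the group that did not detect the probe was set to the lowest level at which any probe was detected on its arrays, or to its own value if higher.

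Mrps31, a small-subunit protein without a bacterial counterpart, read 11.29 and 11.32 in EG, 9.65 and 9.72 in hiEGL1 and 9.66 and 9.74 in hiEGL2. Both lines were about equally low, 3.07-fold and 3.04-fold below EG, and all 3 of its probes were lower in hiEGL1, by -1.15 to -1.87 on the log2 scale. Mrpl47 fell from 8.24 and 8.30 in EG to 7.09 and 7.02 in hiEGL1 and 6.64 and 6.35 in hiEGL2. It was 3.44-fold lower in hiEGL2 (adjusted p = 9.65e-07), and its 3 groups did not overlap. Mrpl35 was at 7.23 and 7.08 in EG and was detected by 1 of 2 hiEGL1 arrays (6.0 and 5.15) and by neither hiEGL2 array (4.41 and 4.56), at least 2.17-fold lower in hiEGL2. For dim probes such as this one, the level in the low group is a value at background.

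A few members are described by the place of their protein in the ribosome. Mrps12, the protein of the decoding centre, stood at 10.28 and 10.29 in EG, 10.05 and 9.98 in hiEGL1 and 9.29 and 9.46 in hiEGL2, lower in hiEGL1 by 1.20-fold and in hiEGL2 by 1.88-fold. Of the stalk, which recruits translation factors, Mrpl12 stood at 9.52 and 9.50 in EG, 9.39 and 9.52 in hiEGL1 and 8.73 and 8.74 in hiEGL2. It was lower in hiEGL2 (1.71-fold, adjusted p = 1.33e-05), while the EG and hiEGL1 arrays overlapped. Mrpl10, which anchors Mrpl12, was lower in hiEGL2 by 1.27-fold, and Mrpl11, at the base of the stalk, was detected in EG alone of the 3 groups (6.15 and 5.91). Mrpl3, close to the catalytic centre, was higher in hiEGL1 by 1.18-fold and did not pass the test in hiEGL2. Mrpl45, which ties the large subunit to the inner membrane, read 4.44 to 5.27 on the 6 arrays and none of its differences on this side passed the test. Mrps30 was lower by 1.52-fold in hiEGL1 and 1.53-fold in hiEGL2, and Mrps34, which stabilizes the RNA of the small subunit, was higher by 1.28-fold in hiEGL1. Mrpl44, a relative of ribonucleases, had no listed probe.

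**Figure D2:**
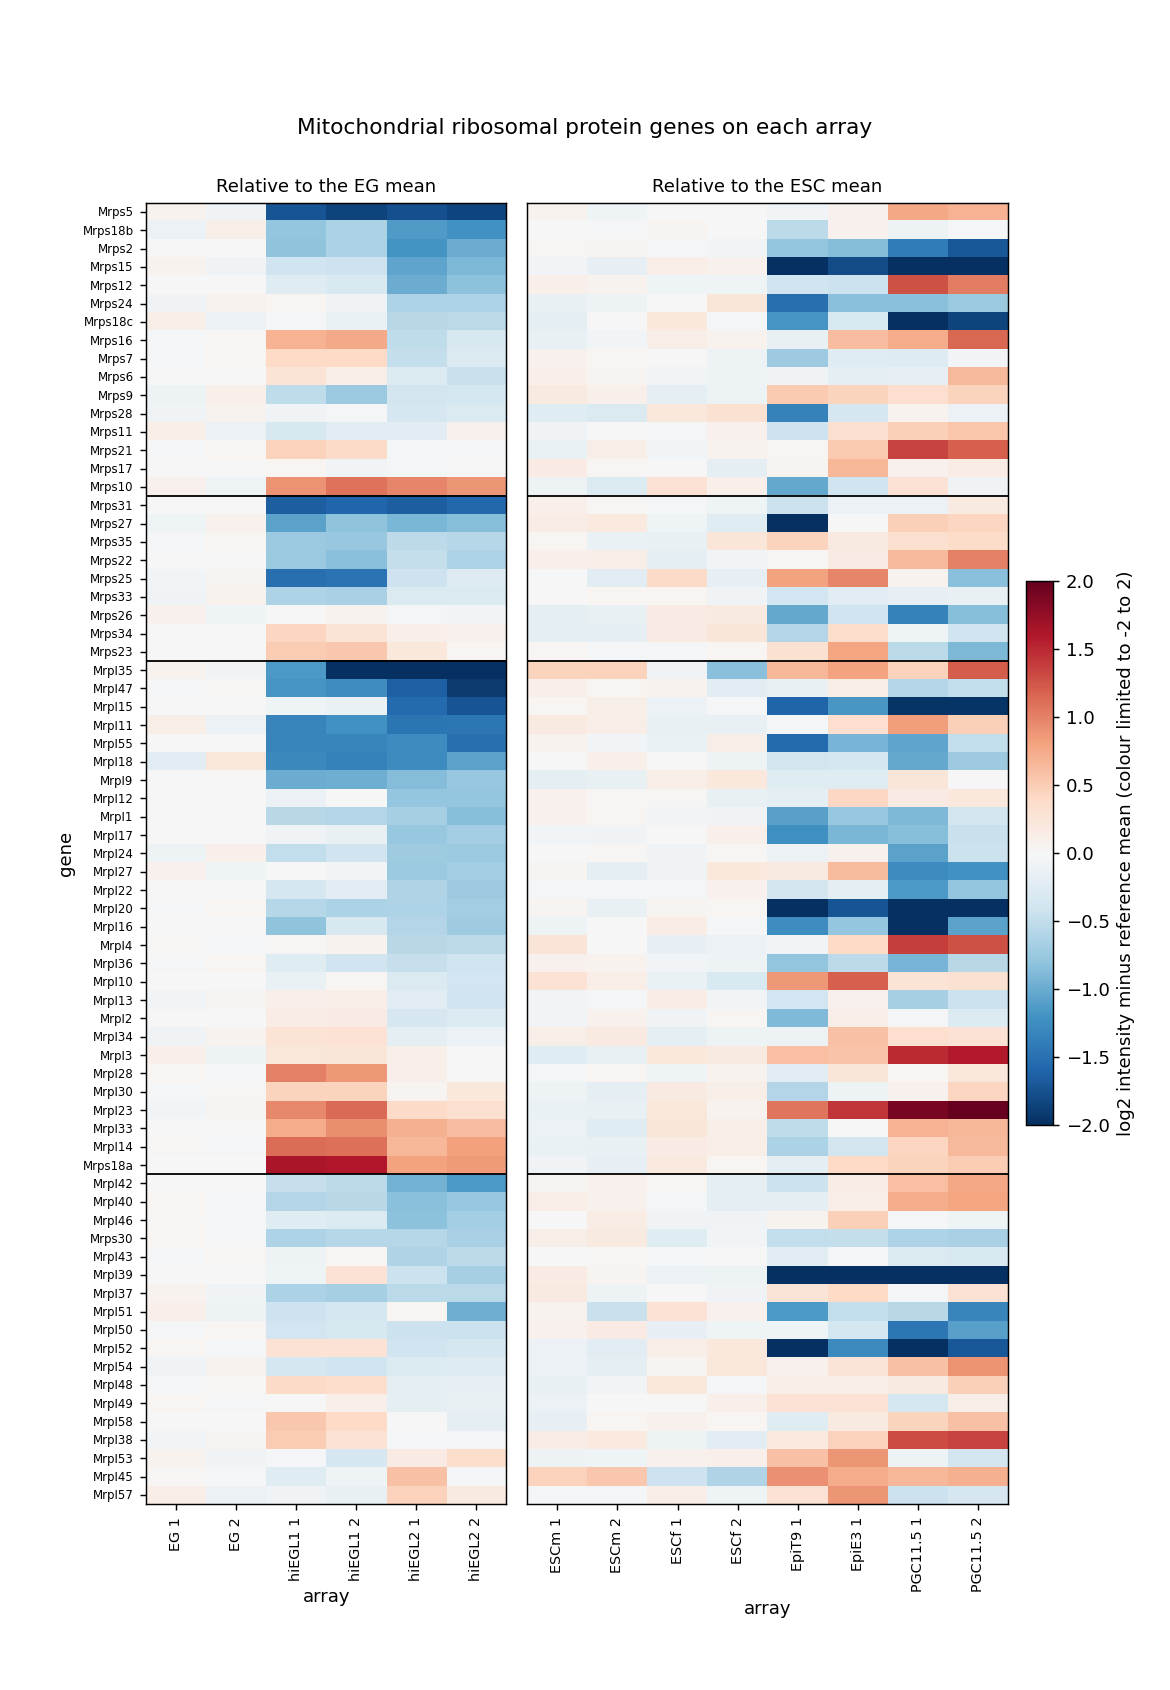
Log2 intensity of each of the 71 members on each array, minus the EG mean (left, 6 arrays) or the ESC mean (right, 8 arrays), with the colour limited to -2 to 2. Black lines part 16 small-subunit members with a bacterial counterpart, 9 without, 28 large-subunit members with one and 18 without. The hiEGL2 columns are mostly blue, and the PGC11.5 columns hold both strong blue and strong red.

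The direct comparison of both hypoxia-derived lines showed a one-sided difference. In hiEGL2, 33 members were lower than in hiEGL1 and 3 were higher, beside 16% and 13.9% of all genes tested (30% in all). The median log2 difference was -0.29 over members and -0.02 over all genes. In 47 members both hiEGL2 arrays lay below both hiEGL1 arrays, and in 12 they lay above, beside 3527 and 3120 of all 9054 genes. With each array only scaled, without the quantile step, the split was 26 lower and 7 higher, and the median over all genes moved to 0.29 while that of the members stayed at -0.25. Leaving out 1 array at a time gave 21 to 24 lower (21 without the first hiEGL1 array) and 1 to 3 higher. The hiEGL2 arrays were also dimmer, with mean raw signals of 167.7 and 172.7 beside 250.7 and 256.9 in hiEGL1 and 278.6 and 280.3 in EG, and the part of signal strength in the difference was not tested.

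By role, the lower calls were spread over both subunits, with 10 of 25 small-subunit and 23 of 46 large-subunit members. Among members with a bacterial counterpart, 9 of 16 in the small subunit and 16 of 28 in the large subunit were lower and 0 were higher. Among those without, 1 of 9 in the small subunit (Mrps23) and 7 of 18 in the large subunit were lower, and the 3 higher members (Mrps25, Mrps33 and Mrpl53) all fell in these classes. The difference between the classes was not tested. Respiratory chain and ATP synthase genes gave 14 of 70 lower and 8 higher (median -0.14), and cytosolic ribosomal protein genes 14 of 60 lower and 8 higher (median -0.01). Of the 28 lower members with a promoter window, 15 held the ETS pattern (53.6%). So did 8 of 32 members that were not called (25%) and 2 of the 3 higher members. The NRF1 pattern stood in 7 of the 28 and 7 of the 32. The YY1 pattern stood in 4 and 4, and the E-box in 2 and 3. The differences between these shares were not tested. Of 6 regulators of mitochondrial genes, Gabpa alone was called between the lines. This GABP gene was higher in hiEGL2 (log2 difference 1.07) but undetected in hiEGL1, so the size rests on values at background. Relative to EG, Gabpa was lower in hiEGL1 (-1.65) and hiEGL2 (-0.58).

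Mrps16, a small-subunit protein in which mutations cause a respiratory chain disorder in people, had the largest fall among members detected in both lines. It read 7.59 and 7.64 in EG, 8.31 and 8.38 in hiEGL1 and 7.11 and 7.30 in hiEGL2. EG lay between the lines and no arrays overlapped. It was 2.20-fold lower in hiEGL2 than in hiEGL1 (log2 difference -1.14 ± 0.13 SE, adjusted p = 1.83e-04). Mrps7, which binds the head of the small subunit's RNA in bacteria, followed the same order, at 9.16 and 9.23 in EG, 9.59 and 9.59 in hiEGL1 and 8.72 and 8.91 in hiEGL2. It was 1.71-fold lower in hiEGL2 than in hiEGL1 (log2 difference -0.78 ± 0.09 SE), and its second probe was lower by -1.16. Relative to EG, Mrps16 differed by 0.73 in hiEGL1 and -0.41 in hiEGL2, and Mrps7 by 0.40 and -0.38, all of which passed the test.

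Mrpl28, a large-subunit protein, stood at 11.27 and 11.20 in EG, 12.24 and 12.10 in hiEGL1 and 11.34 and 11.25 in hiEGL2. The hiEGL2 and EG arrays overlapped while hiEGL1 stood above both, by 1.84-fold over hiEGL2 (adjusted p = 7.76e-05). Mrpl15, whose bacterial relative is needed late in subunit assembly, read 6.15 and 6.13 in EG, 6.05 and 6.0 in hiEGL1 and 4.59 and 4.42 in hiEGL2. No hiEGL2 array detected it, so its log2 difference of -1.52 from hiEGL1 (adjusted p = 4.91e-05) has no fold, since even the detection floor of these arrays lay as high as the hiEGL1 level. In the other direction, Mrps25, a small-subunit protein without a bacterial counterpart, was at 5.56 and 5.59 in hiEGL1, undetected there, and at 6.65 and 6.81 in hiEGL2. That is at least 1.85-fold higher in hiEGL2, and below the EG arrays at 7.01 and 7.12. Its call did not hold when the gene's detected probes were averaged. Mrps33 read 9.32 and 9.45 in EG, 8.77 and 8.73 in hiEGL1 and 9.10 and 9.10 in hiEGL2, higher in hiEGL2 than in hiEGL1 by 1.27-fold but below EG, and its second probe differed by 0.31 (adjusted p = 0.0886). Mrpl17 and Mrps24, both lower in hiEGL2 than in hiEGL1, by 1.54-fold and 1.52-fold, read 11.26 and 11.32, and 11.14 and 11.15, in hiEGL2. Their hiEGL1 arrays (11.95 and 11.87, and 11.81 and 11.69) did not differ from EG by the test.

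**Figure D3:**
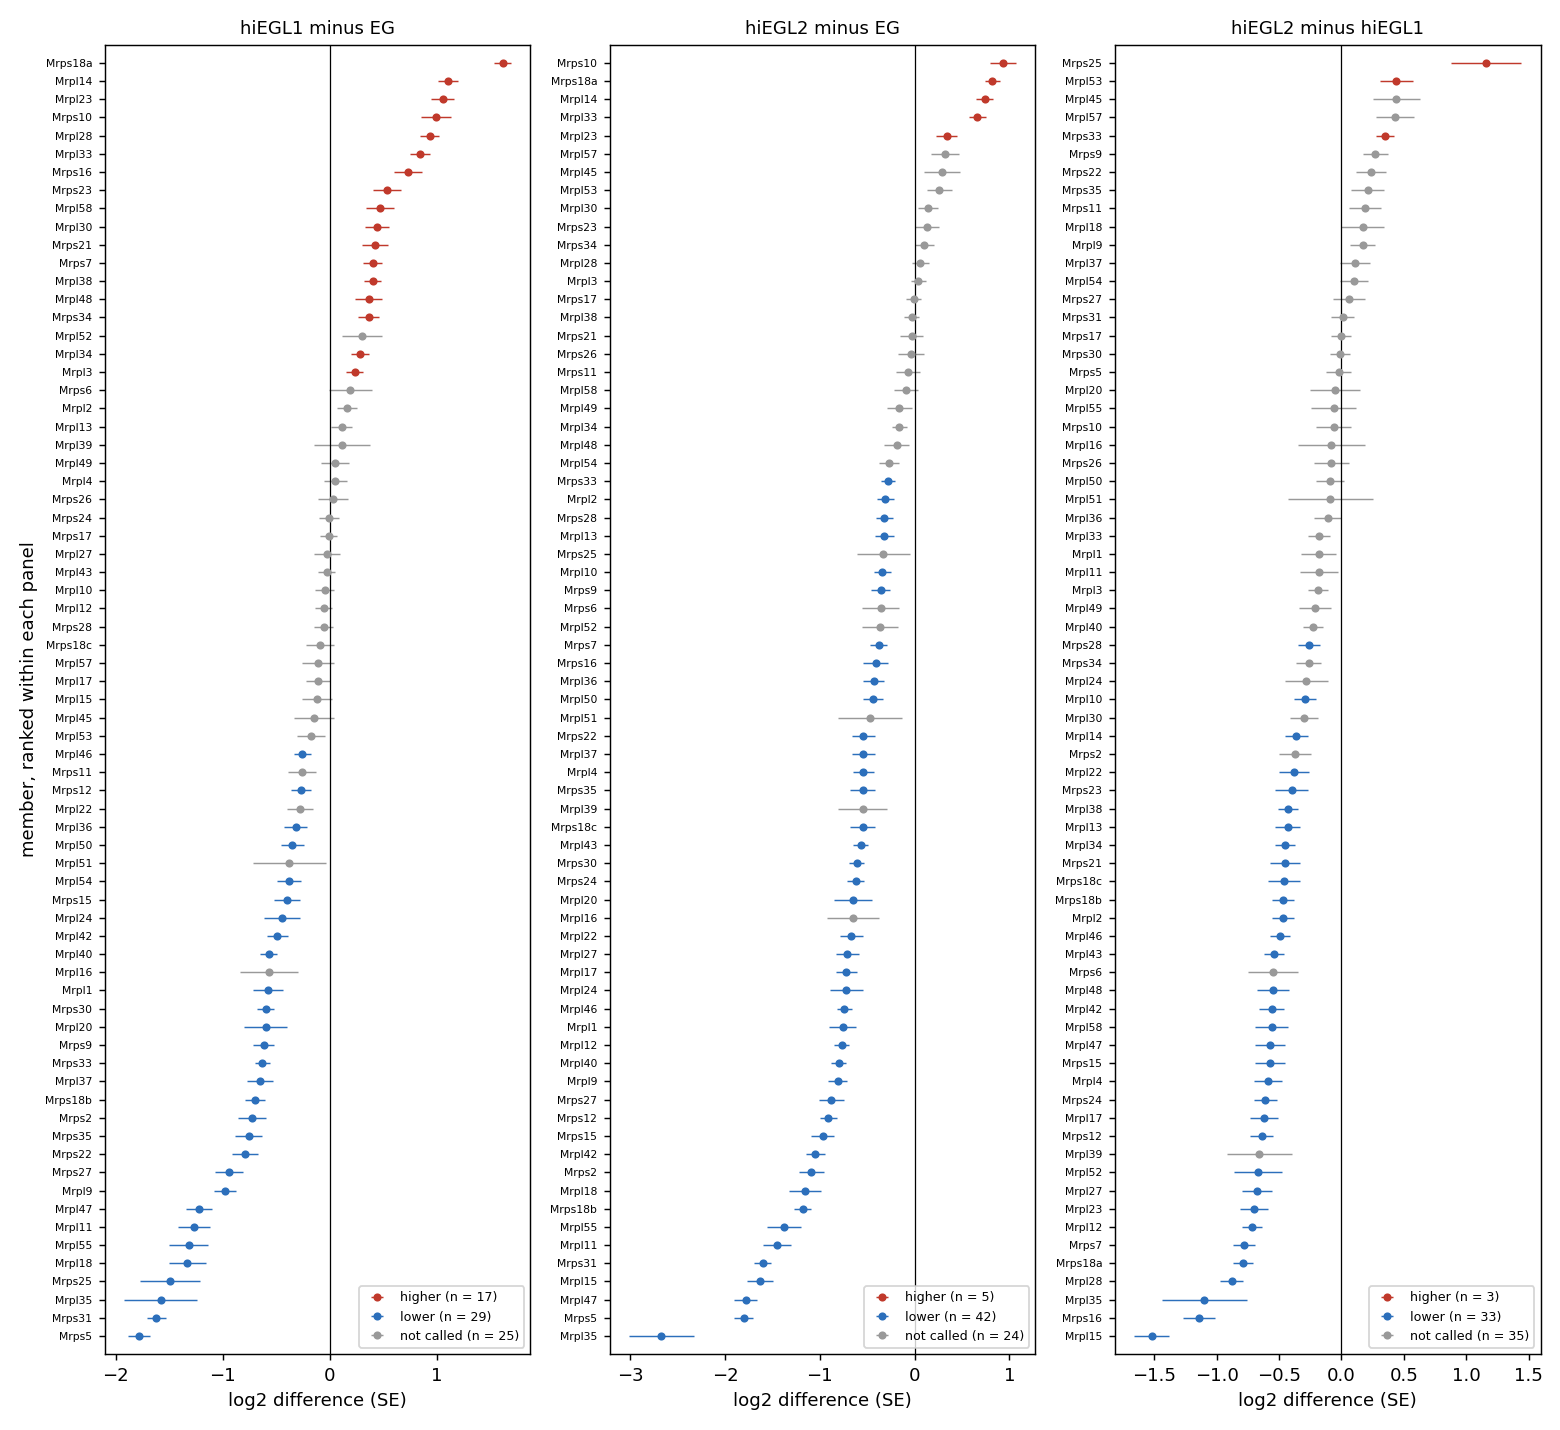
Log2 difference of each of the 71 members (points, with moderated SE bars) in hiEGL1 minus EG, hiEGL2 minus EG and hiEGL2 minus hiEGL1, ranked within each panel; red marks members called higher, blue lower and grey not called. Lower calls number 29, 42 and 33 and higher calls 17, 5 and 3, and each pair of comparisons shares 1 group of arrays.

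Other genes of mitochondrial translation were read from lists of their own. Beside them, 32.7% of all genes tested were lower and 26.5% higher in hiEGL2 relative to EG, and 30.7% and 28.1% in hiEGL1. Between the lines these shares were 16% lower and 13.9% higher in hiEGL2. No list was tested against them. The counts below include calls of genes detected on no EG or hiEGL array, which rest on values at background. These are Mpv17l2 among assembly factors (lower in both lines), Mtif2 among translation factors (lower in hiEGL1) and Sars2 among tRNA charging genes (lower in hiEGL2). Of 21 assembly and RNA modification factors, 12 were lower and 0 higher in hiEGL2 relative to EG, and 8 lower and 3 higher in hiEGL1. Of 9 translation factors, 6 were lower and 0 higher in hiEGL2 and 5 lower and 1 higher in hiEGL1. Tufm, the elongation factor that brings tRNA to the ribosome, was lower by 0.41 ± 0.06 (SE) in hiEGL1 and by 0.54 ± 0.06 in hiEGL2 on the log2 scale. Of 14 genes that charge mitochondrial tRNAs, 9 were lower and 1 higher in hiEGL2 and 7 lower and 2 higher in hiEGL1. Of 12 genes of mitochondrial transcription and RNA processing, 8 were lower and 1 higher in hiEGL2 and 7 lower and 1 higher in hiEGL1. Tfam, which packs mitochondrial DNA and starts its transcription, had log2 differences of -2.79 in hiEGL1 and -1.75 in hiEGL2, from a level of 7.54 in EG. It was detected on 0 of 2 hiEGL1 arrays and 1 of 2 hiEGL2 arrays, so the sizes of these differences rest on values at background. Dap3, a small-subunit protein named for another function, was lower in both lines (-0.89 and -0.78). In hiEGL2 relative to hiEGL1, 6 of the assembly factors were lower and 1 higher, 2 of the translation factors were lower and 1 higher, 2 of the tRNA charging genes were lower and 1 higher, and 2 of the transcription and RNA processing genes were lower and 2 higher.

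Markers of other cell types and states moved with the hiEGL groups. The shares of all genes called in these comparisons are those given above. Of 19 fibroblast markers, 14 were higher and 0 lower in hiEGL1 relative to EG, and their summed normalized intensity was 8337 to 8756 in EG, 27057 to 28744 in hiEGL1 and 28065 to 28450 in hiEGL2. Of 12 gonadal somatic markers with a probe, only 4 (Fst, Pdgfra, Sox9 and Wt1) passed the detection filter and were tested. These 4 were called higher in both lines, with sums of 118 to 130 in EG and 3212 to 3723 in the lines, which detected 3 of the 4. Fst was detected on no EG or hiEGL array, so its calls rest on values at background. All 8 pluripotency markers were lower in both lines, with sums of 39671 to 40497 in EG, 13240 to 13562 in hiEGL1 and 10044 to 10403 in hiEGL2. Of 9 blood, endothelial and macrophage markers, 4 were higher in each line, with sums of 542 to 547 in EG and 1280 to 1461 in the lines. Of 7 germ cell markers, 4 were higher and 1 lower in hiEGL1 and 3 higher and 1 lower in hiEGL2, with sums of 4371 to 4583 in EG, 11712 to 12441 in hiEGL1 and 9802 to 9974 in hiEGL2. Between hiEGL2 and hiEGL1 the fibroblast sums overlapped, and 2 of 19 markers were higher and 1 lower. Some markers passed the detection filter only through hiEGL arrays: Col5a2, Pdgfrb, S100a4 and Lum among fibroblast markers, and Cd34 and Cdh5 among blood and endothelial ones. The filter favoured a higher call for these, so such calls are no separate support. The part of these cells or states in the members' differences was not tested.

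**Figure D4:**
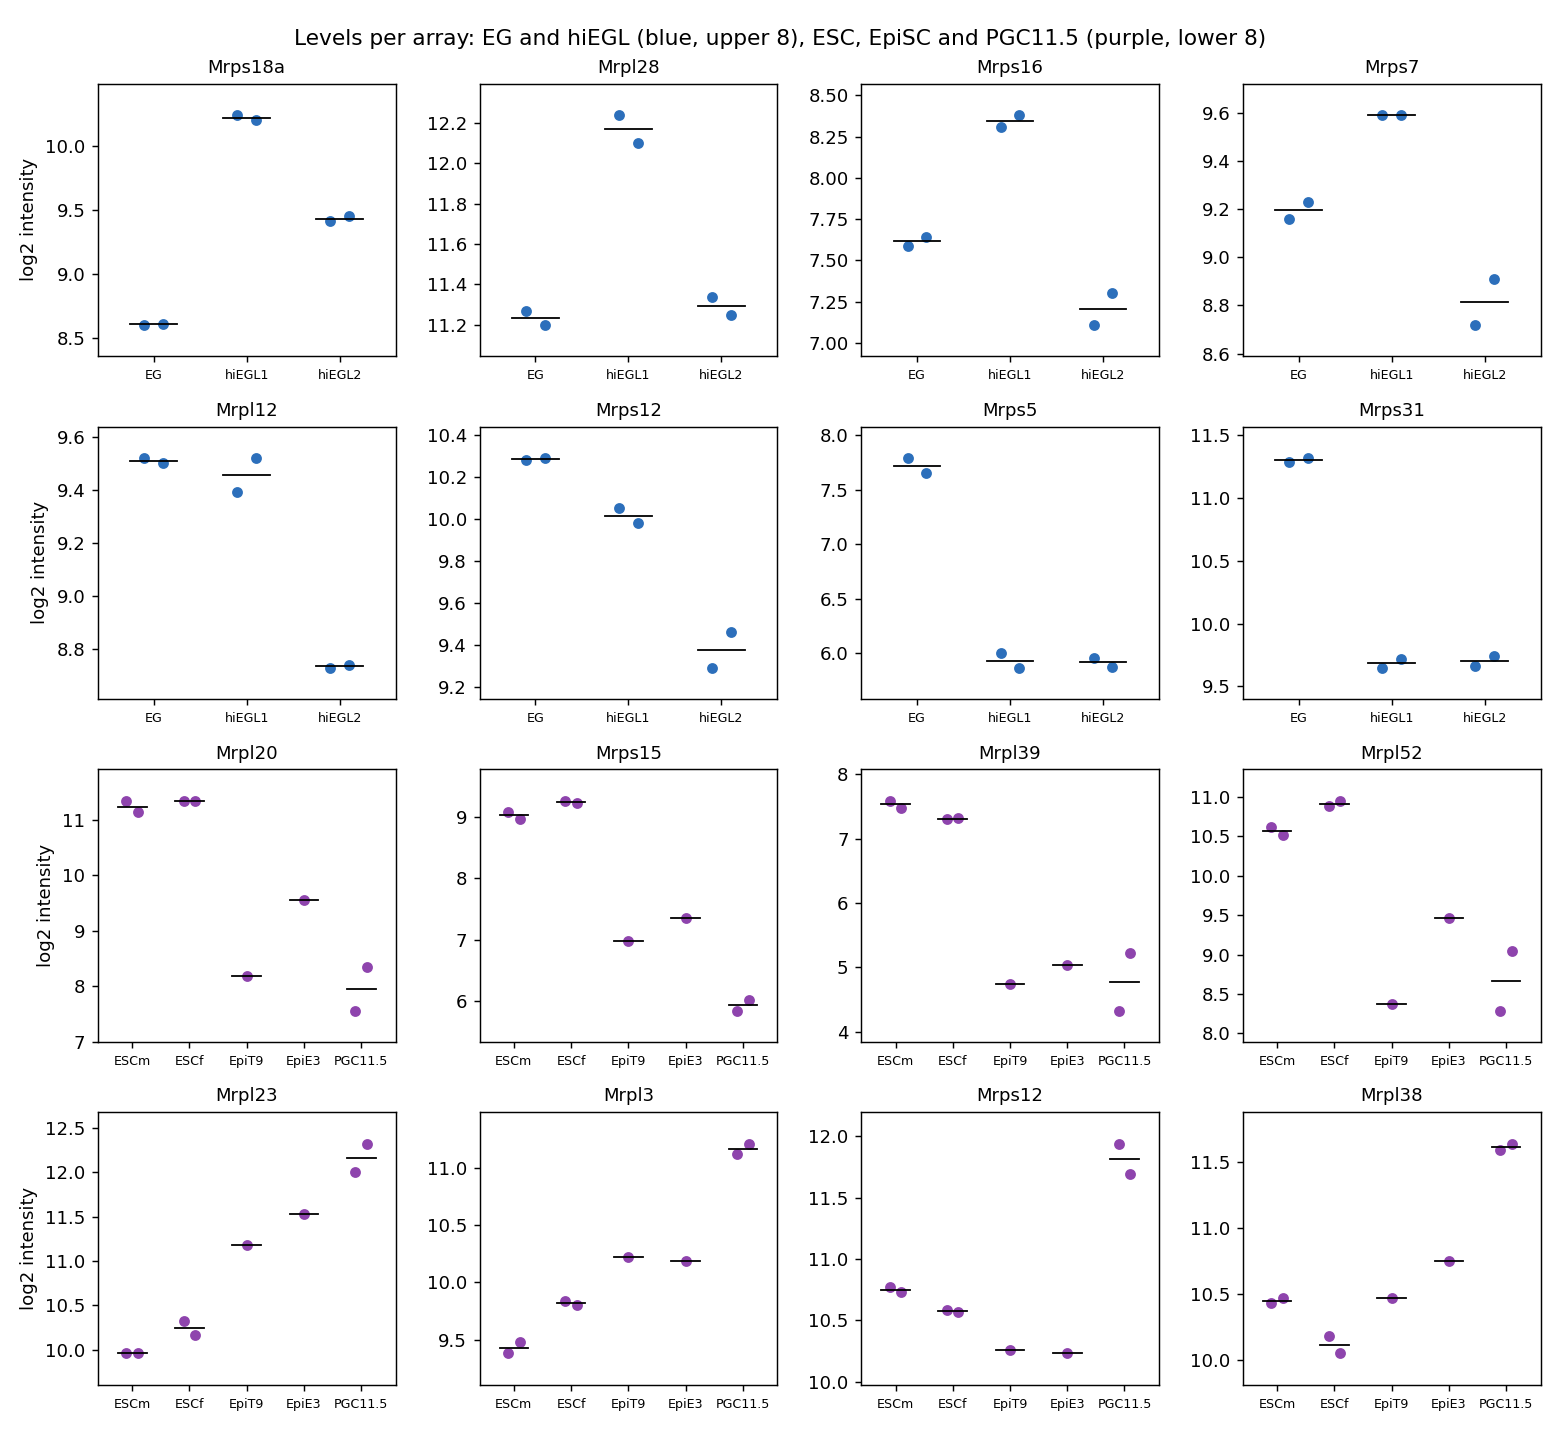
Log2 intensity per array (points) and group mean (black line) of 8 members in EG, hiEGL1 and hiEGL2 (blue) and of 8 members in ESCm, ESCf, EpiT9, EpiE3 and PGC11.5 (purple); each panel has its own axis. In hiEGL2, Mrps16, Mrps7, Mrpl12 and Mrps12 lie below both other groups, and Mrpl20 and Mrps15 lie far below ESC in EpiT9, EpiE3 and PGC11.5.

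On the other side, epiblast stem cells represent a later, primed pluripotent state than embryonic stem cells, and PGC11.5 the germ line itself. ESC is the mean of ESCm and ESCf, and EpiSC the mean of EpiT9 and EpiE3. Each line was fitted as a group of its own, so differences between lines do not enter the SEs or p-values on this side. EpiT9 and EpiE3, as lone arrays, add nothing to the estimate of spread. In EpiSC, 30 members were lower and 18 higher than in ESC, beside 28.4% and 34.5% of all genes tested (62.9% in all), with medians of -0.12 and 0.07. With line as a random block, 21 were lower and 8 higher. In PGC11.5, 28 were lower and 28 higher than in ESC, beside 34.6% and 33.9% of all genes (68.5% in all), with medians of -0.03 and -0.02. The 28 higher calls became 15 with array weights, which gave each PGC11.5 array 0.13, and 15 with line as a random block. The 28 lower calls became 22 and 23 under these settings. Both comparisons use the same ESC arrays.

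By brightest probes, Mrpl20 and Mrps15, both relatives of bacterial proteins that bind ribosomal RNA early in assembly, had the largest falls in PGC11.5. Other kept probes of Mrpl47, Mrpl13 and Mrpl18 had log2 differences of -3.46, -3.17 and -3.12 there relative to ESC. Their brightest probes gave -0.54, -0.55 and -0.87. In EpiSC relative to ESC these other probes differed by -2.78, -3.67 and -3.46, while the brightest probes were not called. Mrpl20 read 11.34 and 11.13 in ESCm, 11.34 and 11.33 in ESCf, 8.19 in EpiT9, 9.56 in EpiE3 and 7.56 and 8.34 in PGC11.5. All 4 ESC arrays lay above the rest, and the EpiT9 array lay among the PGC11.5 arrays. Mrpl20 was 10.1-fold lower in PGC11.5 (log2 difference -3.34 ± 0.17 SE, adjusted p = 6.99e-08) and 5.33-fold lower in EpiSC. Mrps15 read 9.09 and 8.98 in ESCm, 9.27 and 9.23 in ESCf, 6.97 in EpiT9, 7.36 in EpiE3 and 5.84 and 6.02 in PGC11.5. Its 3 cell types did not overlap, and it was 3.94-fold lower in EpiSC and 9.28-fold lower in PGC11.5, where 1 of 2 arrays detected it.

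Mrpl39 and Mrpl52, large-subunit proteins without bacterial counterparts, were also low in both. Mrpl39 fell from 7.31 to 7.59 on the ESC arrays to 4.74 in EpiT9 and 5.04 in EpiE3, of which 1 detected it, and to 4.33 and 5.23 in PGC11.5, which did not. Its fold was 5.78 for EpiSC and at least 2.97 for PGC11.5. Mrpl52 was 3.53-fold lower in EpiSC and 4.22-fold lower in PGC11.5. Mrps18c, like Mrps18b an S18 relative of the small subunit, read 10.46 to 10.86 in ESC, 9.48 in EpiT9, 10.34 in EpiE3 and 8.48 and 8.80 in PGC11.5. All groups kept apart, and PGC11.5 was 4.04-fold below ESC, while Mrps18a was 1.39-fold above it.

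Mrpl23 had the largest rise in both comparisons. It read 9.97 and 9.96 in ESCm, 10.33 and 10.17 in ESCf, 11.18 in EpiT9, 11.53 in EpiE3 and 12.00 and 12.32 in PGC11.5. The 3 cell types rose in that order without overlap, by 2.38-fold in EpiSC (adjusted p = 1.64e-06) and by 4.13-fold in PGC11.5 (adjusted p = 3.75e-08). Mrpl3 rose 2.91-fold in PGC11.5, from 9.38 to 9.84 on the ESC arrays to 11.12 and 11.21, but its second probe differed by 0.16 (adjusted p = 0.453). Mrpl38, a large-subunit protein without a bacterial counterpart, stood at 10.05 to 10.47 in ESC and at 11.59 and 11.64 in PGC11.5, a 2.52-fold rise. Mrpl4, Mrps21 and Mrps12 rose 2.50-fold, 2.43-fold and 2.23-fold in PGC11.5. Mrpl10, of the stalk, was 2.05-fold higher in EpiSC, at 10.84 and 11.16 against 9.67 to 10.26 in ESC, while its other probe differed by -0.08 (adjusted p = 0.516).

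PGC11.5 and EpiSC were also compared directly. In PGC11.5, 27 members were higher and 21 lower than in EpiSC, beside 26.8% and 32.4% of all genes tested (59.2% in all), with medians of 0.09 and -0.06. With line as a random block, 17 were higher and 12 lower. Mrps12 was 2.97-fold higher (log2 difference 1.57 ± 0.09 SE), at 11.94 and 11.69 in PGC11.5, 10.26 in EpiT9 and 10.23 in EpiE3. These arrays did not overlap, and the ESC arrays lay between, at 10.57 to 10.77. Mrps27, a protein of the small subunit that binds RNA, was 3.11-fold higher, but EpiT9 read 5.24 and EpiE3 7.60 against 8.08 and 8.04 in PGC11.5. Mrpl27, near the catalytic centre, fell from 8.98 in EpiT9 and 9.42 in EpiE3 to 7.54 and 7.59, or 3.10-fold. Mrps25 (2.43-fold), Mrps23 (2.42-fold) and Mrps18c (2.41-fold) were lower as well.

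**Figure D5:**
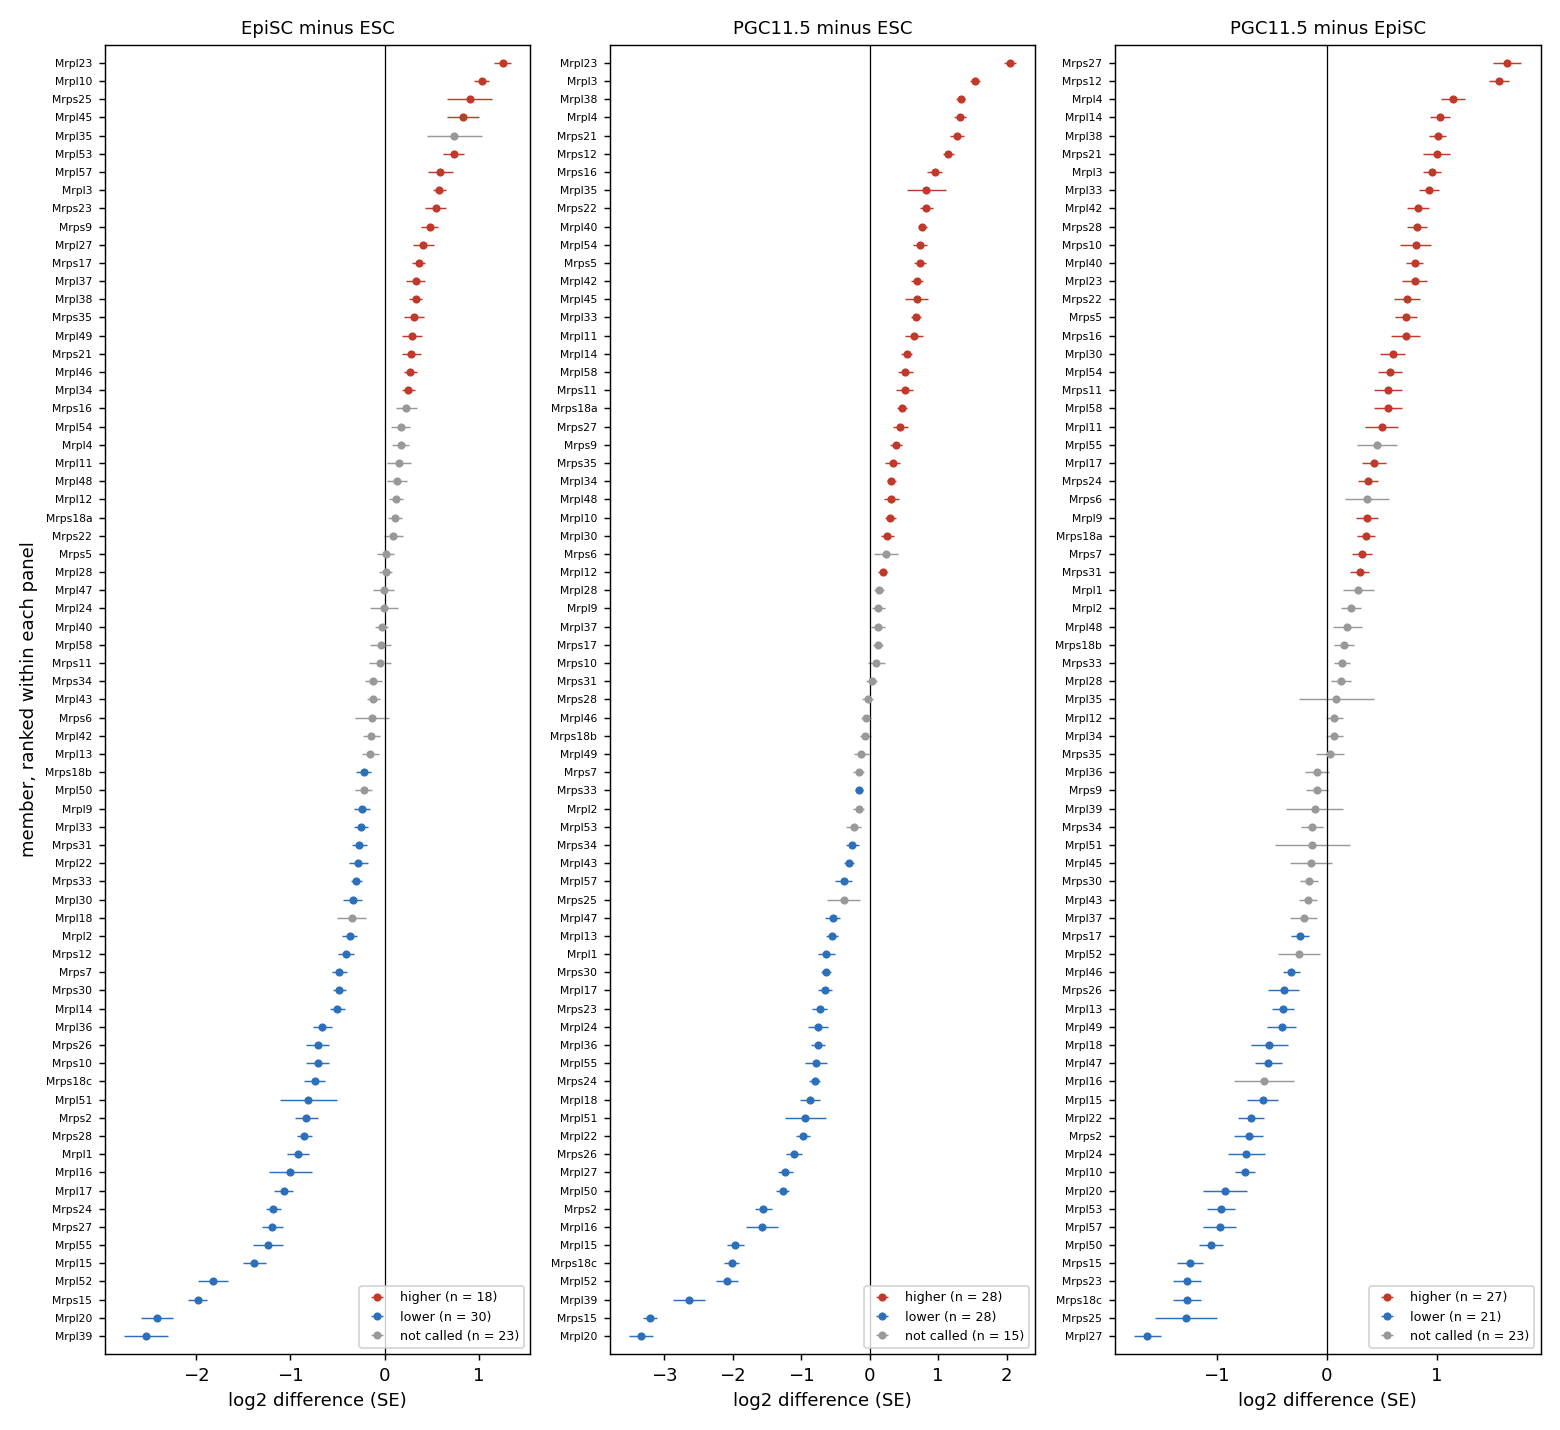
Log2 difference of each of the 71 members (points, with moderated SE bars) in EpiSC minus ESC, PGC11.5 minus ESC and PGC11.5 minus EpiSC, ranked within each panel; red marks members called higher, blue lower and grey not called. Mrpl20, Mrps15 and Mrpl39 lie at the low end of the first 2 panels and Mrpl23 at the high end, and each pair of panels shares a group.

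These comparisons depended on single arrays. EpiE3 read higher than EpiT9 in 62 of 71 members, with a median difference of 0.37, whereas 53.2% of all genes were higher in EpiE3, with a median of 0.03. Without EpiT9 the calls in EpiSC relative to ESC were 21 higher and 17 lower, and without EpiE3 they were 8 higher and 34 lower. For PGC11.5 relative to EpiSC, leaving out EpiT9 gave 18 higher and 24 lower, and a fit to only the arrays compared called 11 members higher and 5 lower. The PGC11.5 arrays also differed in blood, endothelial and macrophage markers, whose summed intensity was 2459 on one array and 50612 on the other, beside 321 to 398 in ESC and 221 to 230 in EpiSC. Fibroblast marker sums also differed, at 1251 and 6249 on the PGC11.5 arrays, with 4 to 8 of 19 markers detected. These sums were 3787 to 5209 in ESC, 5769 in EpiT9 and 1932 in EpiE3. None of the 4 gonadal somatic markers tested was detected in PGC11.5. The part of blood or other somatic cells in the members' differences was not tested. Leaving out the first PGC11.5 array gave 32 higher and 29 lower relative to ESC, and leaving out the second 26 and 27.

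Probes of 1 gene did not always agree on this side. Of 21 members with several kept probes, 4 had probes called in opposite directions in each of the 3 comparisons and 0 in any comparison among EG, hiEGL1 and hiEGL2. For EpiSC relative to ESC these were Mrpl3, Mrpl49, Mrps25 and Mrps31, for PGC11.5 relative to ESC Mrpl10, Mrpl43, Mrpl49 and Mrpl51, and for PGC11.5 relative to EpiSC Mrpl13, Mrpl49, Mrps10 and Mrps26. Mrps25 was 1.86-fold higher in EpiSC by its brightest probe, while another probe differed by -1.89 on the log2 scale. The directions of these members depend on the probe. The 0 among EG, hiEGL1 and hiEGL2 is no measure of agreement, since some second probes were detected on none of those arrays. Probes of Mrpl3, Mrpl47 and Mrpl49 are examples. All probes of a gene shared a call in 7 of the 21 members for hiEGL1 relative to EG. The number was 9 for hiEGL2 relative to EG and 2 between the lines. Among ESC, EpiSC and PGC11.5 these numbers were 3, 6 and 4.

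The female and male embryonic stem cell lines were compared as well. In ESCf, 6 were higher and 5 lower than in ESCm, beside 10.2% and 9.09% of all genes tested (19.3% in all), with medians of 0.00 and -0.02. These counts became 13 and 11 with only the compared arrays fitted, 14 and 10 with array weights, and 2 to 3 and 1 to 3 with 1 array left out. The largest rises were those of Mrps28 (log2 difference 0.52), Mrps34 (0.40) and Mrpl3 (0.39). Mrpl45 fell from 5.56 and 5.64 to 4.68 and 4.50, undetected in ESCf, at least 1.31-fold. Of the 70 respiratory chain and ATP synthase genes, 28 were higher in ESCf and 1 lower. Sex and line cannot be told apart here.

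The other lists of mitochondrial translation were also counted in PGC11.5 and EpiSC relative to ESC, with no test between lists. Of all genes tested, 33.9% were higher and 34.6% lower in PGC11.5, and 34.5% higher and 28.4% lower in EpiSC. Of 21 assembly and RNA modification factors, 8 were higher and 7 lower in PGC11.5 and 8 higher and 8 lower in EpiSC. Of 9 translation factors, 2 were higher and 2 lower in PGC11.5 and 2 higher and 5 lower in EpiSC. Of 14 genes that charge mitochondrial tRNAs, 9 were higher and 1 lower in PGC11.5 relative to ESC, and 8 higher and 0 lower in EpiSC. Iars2, which charges isoleucine tRNA, rose by 1.25 in EpiSC and 2.01 in PGC11.5 on the log2 scale, and Sars2, for serine tRNA, by 2.08 in PGC11.5. Of 12 genes of mitochondrial transcription and RNA processing, 10 were lower and 1 higher in PGC11.5, with a median of -0.99, and 6 lower and 0 higher in EpiSC. Slirp, a partner of Lrpprc in keeping mitochondrial mRNAs stable, stood at 10.59 in ESCm, 10.75 in ESCf, 8.76 in EpiT9, 9.31 in EpiE3 and 7.48 in PGC11.5 (log2 difference -3.19 from ESC). Respiratory chain and ATP synthase genes gave 35 higher and 20 lower of 70 in PGC11.5 (median 0.28), and cytosolic ribosomal protein genes 12 higher and 28 lower of 60 (median -0.12).

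A minority of the calls reached a 2-fold change, counted on log2 differences as fitted, with values at background included. In hiEGL1 relative to EG, 8 members fell and 3 rose by that much, beside 16% and 15.9% of all genes, and in hiEGL2 11 fell and 0 rose, beside 16.1% and 15.1%. Between the lines, 3 members (Mrpl15, Mrps16 and Mrpl35) fell and 1 (Mrps25) rose, beside 3.83% and 3.45%. Of these, only Mrps16 was detected on all arrays of both lines, and the sizes of the others rest on values at background. In EpiSC, 10 members fell and 2 (Mrpl23 and Mrpl10) rose relative to ESC, beside 14.0% and 14.4%, and in PGC11.5 11 fell and 6 rose, beside 19.4% and 16.5%. PGC11.5 relative to EpiSC had 6 falls and 5 rises of that size, beside 16.5% and 11.9%, and ESCf relative to ESCm 1 fall (Mrpl45) and 0 rises, beside 1.04% and 3.09%. Mrpl45 was undetected in ESCf, so the size of its fall rests on values at background.

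The order of group means summarises the members' patterns, as a description. On the first side, 30 members followed EG over hiEGL1 over hiEGL2, 15 had hiEGL1 highest and hiEGL2 lowest, and 13 had EG highest and hiEGL1 lowest. On the other side, 20 followed ESC over EpiSC over PGC11.5 and 17 the reverse, and 13 had PGC11.5 highest and EpiSC lowest. Neighbours in an order need not differ beyond their spread: 35 members were not called between the hiEGL lines and 25 were not called between hiEGL1 and EG.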

How the data were processed

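Gene expression was measured on 14 single-colour Illumina arrays. Per the file headers, the deposited scanner table gives an intensity per probe and array, not normalized, and a detection p-value from the scanner software; the authors' deposited value table holds normalized log2 values and was used as an alternative. The tools named are BeadStudio 3.2, lumi and RMA, per the submitters' processing notes, which give them no roles. The labels describe 2 RNA amplification methods for every sample.

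Raw intensities were background-corrected and quantile-normalized in R 4.3.3 by the neqc function (limma 3.58.1, offset 16). Of the listed probes, 23978 had 1 gene symbol, 0 several and 1719 none. A gene was represented by its brightest probe and tested when that probe was detected at p under 0.01 on at least 2 arrays (9054 genes). limma fitted 8 group means with a trended prior (6 residual degrees of freedom), and p-values were adjusted by Benjamini-Hochberg over all these genes, with calls at 0.05. The procedure was tested on simulated data. Alternatives changed the background correction, normalization, filter, probe rule, arrays fitted, array weights, blocks and threshold, and left out each array in turn; a fit per probe was chosen after seeing the data. The number of arrays limits the precision. All 71 symbols matched RefSeq gene names (GRCm38.p6).

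The members and all gene lists were chosen with earlier results of these data known, and the cytosolic ribosomal and respiratory chain lists were added by symbol. Members named with array values were the 3 largest non-overlapping rises and falls of each comparison, those with the highest levels or widest ranges, those with probes of opposite call, and a set chosen by role; others are named as examples.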

Additional observations from a re-analysis of the deposited data

Results flagged for a closer look

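Mrps16 and Mrps7 were singled out because the 2 hypoxia-derived lines were called in opposite directions relative to EG. A called difference between the lines was also required for the choice, so the p-values of that difference are no separate support. Mrps16 differed by 0.73 in hiEGL1 and -0.41 in hiEGL2, and by -1.14 between the lines (hiEGL2 minus hiEGL1, limma adjusted p = 1.83e-04). Mrps7 differed by 0.40 and -0.38, and by -0.78 between the lines (adjusted p = 2.43e-04). The lower call of Mrps16 in hiEGL2 relative to EG was lost without background correction and without the quantile step, while that of Mrps7 was kept under both. No group had enough arrays to look for a single array standing apart.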

How the results depend on the processing

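Lower calls outnumbered higher ones under every setting run for the 3 comparisons among EG, hiEGL1 and hiEGL2. The balance turned for EpiSC relative to ESC without EpiT9 (21 higher, 17 lower), for PGC11.5 relative to EpiSC without EpiT9 (18 and 24) and at 2-fold (5 and 6), and for ESCf under several settings (4 and 5 with the authors' deposited values). Requiring a 2-fold change gave 3 higher and 8 lower for hiEGL1 and 0 and 11 for hiEGL2 relative to EG, 1 and 3 for hiEGL2 relative to hiEGL1, 2 and 10 for EpiSC and 6 and 11 for PGC11.5 relative to ESC, 5 and 6 for PGC11.5 relative to EpiSC, and 0 and 1 for ESCf relative to ESCm. Values at background entered these counts as they stood. Without the quantile step, hiEGL2 had 9 higher and 34 lower relative to EG and 7 and 26 relative to hiEGL1, and ESCf 7 and 3; the median of all genes then stood at 0.22, 0.51, 0.29, 0.17, 0.73, 0.62 and 0.06 in the order of the first list, and the member median for hiEGL1 relative to EG turned to 0.03. Higher calls for hiEGL2 relative to hiEGL1 became 6 with only its side normalized, 6 with only the compared arrays fitted and 7 with array weights. The lower calls became 42, 41 and 42 in these settings. With line as a random block, EpiSC had 8 higher and 21 lower relative to ESC. PGC11.5 then had 15 higher and 23 lower relative to ESC, and 17 higher and 12 lower relative to EpiSC. Array weights gave PGC11.5 15 higher and 22 lower relative to ESC, and 19 higher and 13 lower relative to EpiSC. Fitting only the compared arrays gave 11 higher and 5 lower relative to EpiSC. PGC11.5 relative to ESC, even in the main fit, had 23 higher and 30 lower without the quantile step. For ESCf, fitting only the compared arrays gave 13 higher and 11 lower, array weights 14 and 10, its side normalized alone 1 and 1, and no filter 3 lower. The cause was not tested, apart from fewer arrays or a stricter threshold where the setting itself sets them.

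Leaving out 1 array gave 11 to 15 higher (11 without the first hiEGL1 array) and 21 to 23 lower for hiEGL1 and 4 to 5 and 34 to 39 for hiEGL2 relative to EG, 1 to 3 (1 without the second hiEGL1 array) and 21 to 24 between the lines, 8 to 21 and 17 to 34 for EpiSC, 24 to 32 and 24 to 29 for PGC11.5 relative to ESC, 18 to 34 and 12 to 26 relative to EpiSC (12 without EpiE3), and 2 to 3 and 1 to 3 for ESCf, each array mattering there. With a lone array left in a group, its spread is taken from the other groups. Replicate numbers did not pair the samples (deviation correlations -0.03 to 0.03), and a replicate block gave 17 higher and 29 lower for hiEGL1, 5 and 43 for hiEGL2, 3 and 32 between the lines, 28 and 27 for PGC11.5 relative to ESC and 4 and 5 for ESCf; EpiSC has no replicate numbers. Of single members' calls, those kept under 7 settings were, in the same order of comparisons, 37 of 46, 38 of 47, 21 of 36, 34 of 48, 36 of 56, 27 of 48 and 2 of 11, and a sign turned in 1, 1, 1, 3, 4, 5 and 0 members. Levels near the detection floor of 4.86 to 6.08 per array limit folds of dim members.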
